A study of Caenorhabditis elegans with 2 samples.

Results

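The regions described here are the 287 PHA-4 ChIP-seq peak summits that fell inside protein-coding sequence, out of 3755 nuclear summits in all (7.64%). They were taken from the union of 3 lists that the authors had thresholded by the irreproducible discovery rate (IDR): a list from both replicates with 2920 nuclear peaks, a list of replicate 1 with 2114 and a list of replicate 2 with 1643. Summits within 100 bp of each other counted once. A summit was kept when it lay in the coding sequence of an Ensembl protein-coding gene other than a col- collagen gene, and outside the window that reaches 1000 bp upstream and 200 bp downstream of any protein-coding gene start. A further 115 coding summits lay inside such a window and were left out, as were 35 summits in col- collagen exons. The members nearest to the edge of the rule lay 205 bp (F47B8.13) and 214 bp (figl-1 and K06A4.10) downstream of a gene start, with signal values of 91.95 in the list of replicate 2, 72.7 in the list from both replicates and 41.59 in the list of replicate 1. The nearest summits left out lay 186, 185 and 181 bp downstream, with signal values of 87.38, 85.78 and 91.53 in the list from both replicates.

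Chromatin came from whole Caenorhabditis elegans of strain RW12220, in which CRISPR had inserted a TY1, EGFP and 3xFLAG tag into the pha-4 gene on chromosome V (st12220[pha-4::TY1::EGFP::3xFLAG]). The worms were L4 larvae aged 48 h, synchronised by starvation at the first larval stage after bleaching, and there were 2 biological replicates of this single group. Chromatin was sonicated to 200 to 800 bp and precipitated with an antibody to GFP, per the sample descriptions, although the antibody field names pha-4. Every cell type of the animal contributed to each library, so binding in a small tissue and weak binding in many tissues cannot be told apart, and the control reads were not analysed here.

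PHA-4 is the worm's FoxA factor, a forkhead protein that binds DNA at TGTTTAC-like words and is required to specify the pharynx, the foregut of the worm. It stays active in the gut and other tissues of the larva and has been studied for its part in the longevity of food-restricted worms. Sites of such factors are mostly sought in promoters and introns, while coding exons carry codons and therefore have their own base composition and, in repetitive proteins, tandem repeats.

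The sequence under the summits differed between members that different replicates supported, and a few windows show how. Each is 151 bases of the coding strand on the ce11 assembly (RefSeq copy of WBcel235), printed 5′ to 3′, and the capitals mark the summit with the 10 bases to each side of it. The first 3 windows belong to members found in both replicate lists.
dos-3 (chrIII:835867-836017, minus strand): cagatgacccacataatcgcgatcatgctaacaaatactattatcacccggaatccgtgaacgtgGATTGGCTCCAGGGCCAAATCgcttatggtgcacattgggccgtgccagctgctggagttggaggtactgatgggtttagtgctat
best-18 (chrIII:10214620-10214770, plus strand): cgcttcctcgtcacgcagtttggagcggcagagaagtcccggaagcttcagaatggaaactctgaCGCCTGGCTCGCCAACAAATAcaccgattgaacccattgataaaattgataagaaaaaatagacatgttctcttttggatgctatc
mnk-1 (chrII:10547504-10547654, minus strand): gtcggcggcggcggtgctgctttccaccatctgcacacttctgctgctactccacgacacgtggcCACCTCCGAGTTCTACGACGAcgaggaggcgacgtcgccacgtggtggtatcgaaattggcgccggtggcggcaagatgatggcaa
The next 3 belong to members found in the list of replicate 2 and not in that of replicate 1.
grl-25 (chrIII:8962584-8962734, plus strand): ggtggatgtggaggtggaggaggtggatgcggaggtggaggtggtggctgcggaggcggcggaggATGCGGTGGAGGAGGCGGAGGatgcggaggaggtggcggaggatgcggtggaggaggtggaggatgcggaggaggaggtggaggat
ram-2 (chrII:11015843-11015993, minus strand): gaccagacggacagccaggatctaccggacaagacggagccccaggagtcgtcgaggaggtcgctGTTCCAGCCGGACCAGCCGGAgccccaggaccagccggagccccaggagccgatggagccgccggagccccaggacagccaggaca
ZK84.1 (chrII:6022575-6022725, plus strand): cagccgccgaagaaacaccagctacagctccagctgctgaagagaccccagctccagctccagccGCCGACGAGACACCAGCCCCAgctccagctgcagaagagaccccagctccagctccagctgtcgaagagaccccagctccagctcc
The last 3 belong to members found in the list of replicate 1 and not in that of replicate 2, and were the strongest there off a chromosome whose sequence is not shown.
F25B5.5 (chrIII:5943928-5944078, minus strand): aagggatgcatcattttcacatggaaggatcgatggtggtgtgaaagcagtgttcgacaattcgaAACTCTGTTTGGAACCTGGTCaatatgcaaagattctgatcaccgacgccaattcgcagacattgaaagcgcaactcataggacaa
pals-26 (chrIII:4378648-4378798, plus strand): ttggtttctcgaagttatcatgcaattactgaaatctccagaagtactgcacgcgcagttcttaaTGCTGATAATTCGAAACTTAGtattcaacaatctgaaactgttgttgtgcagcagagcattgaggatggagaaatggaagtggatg
lin-12 (chrIII:9060331-9060481, minus strand): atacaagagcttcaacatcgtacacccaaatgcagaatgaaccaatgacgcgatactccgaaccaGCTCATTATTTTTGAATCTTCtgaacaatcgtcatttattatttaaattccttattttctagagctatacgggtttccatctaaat
The windows of replicate 2 alone were built of short repeated words. GGAGGA occurred 11 times in the grl-25 window, CCAGCT 11 times in that of ZK84.1, and GCCCCAGGA 4 times in that of ram-2, counted with overlap on the printed strand. Their GC content was 68.9%, 64.9% and 70.2%, against 44.4%, 39.7% and 35.1% in the F25B5.5, pals-26 and lin-12 windows. The dos-3, best-18 and mnk-1 windows held 50.3%, 45.7% and 62.9% GC, and held none of these words more than 1 time. The lin-12 and best-18 windows run past the end of the coding sequence, so their GC is not that of coding sequence alone.

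Support by the replicates was low for coding exon summits. A summit counted as in a list when a summit of that list lay within 100 bp. Of the 287 members, 13 (4.53%, 95% Wilson interval 2.67 to 7.59) were in both replicate lists, against 21.3% of all 3755 summits. The list of replicate 2 held 139 members (48.4%, 42.7 to 54.2), against 43.8% of all summits, and the list of replicate 1 held 93 (32.4%, 27.3 to 38.02), against 56.5%. The conservative list from both replicates, a stricter list that the authors deposited, held 39 members (13.6%, 10.1 to 18.04), against 39.5% of all summits. Coding exon summits were thus below the whole collection in shared support and in the list of replicate 1, while their share in the list of replicate 2 lay near that of all summits.

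Set against other places in the genome, coding exon summits were less often in the list of replicate 1, in both lists or in the conservative list. Against 923 intronic summits the odds ratio was 0.171 for both replicate lists (Fisher's exact test, adjusted p = 3.96e-13, limits 0.0878 and 0.305 at 95%), with shares of 4.53% in coding exons and 21.8% in introns. For the conservative list it was 0.228 (0.154 to 0.330, exact adjusted p = 2.13e-18) and for the list of replicate 1 it was 0.389 (0.290 to 0.518, exact adjusted p = 1.79e-11). For the list of replicate 2 the odds ratio of 1.27 did not pass the threshold (0.962 to 1.67, exact adjusted p = 0.107). The same 3 differences passed against 744 intergenic and 1388 promoter summits, with odds ratios of 0.145 to 0.408, and the list of replicate 2 passed against neither (exact adjusted p = 0.265 and 0.112). These tests, adjusted over 12 comparisons, take summits as units and compare classes within these lists, not conditions. Intronic summits include those at small noncoding RNA genes inside introns, and odds ratios without such neighbourhoods are given in the last section. Base composition moved with some of these results: among summits under 50% GC the odds ratio against introns was 0.634 for the list of replicate 1 (exact adjusted p = 0.0134) and 0.267 for both lists (1.88e-05), while at 50% GC or more it was 0.158 (2.15e-10) and 0.0629 (2.15e-10). For the conservative list the values were 0.245 under 50% GC and 0.178 at 50% or more, and for the list of replicate 2 they were 0.784 and 1.35, neither past the threshold (exact adjusted p = 0.228 and 0.369).

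**Figure D1:**
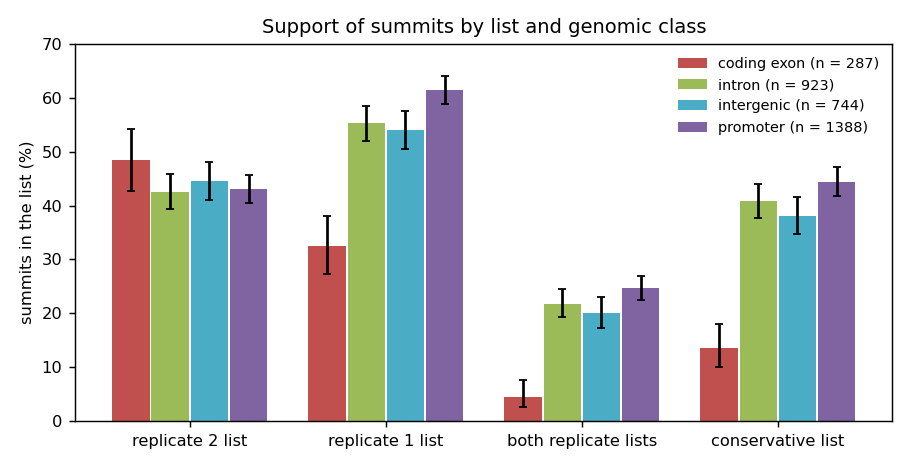
Share of summits (%) found in each list, for coding exons, introns, intergenic sequence and promoters, with bars for 95% Wilson intervals. Coding exon summits reached 4.53% in both replicate lists and 13.6% in the conservative list, below the other classes, and 48.4% in the list of replicate 2.

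By support, the members fell into 126 of replicate 2 only (43.9%), 80 of replicate 1 only (27.9%), 13 of both (4.53%) and 68 of neither (23.7%), the last being called only in the list from both replicates. Over all summits these 4 groups made up 22.6%, 35.2%, 21.3% and 20.96%. The 35 col- collagen exon summits, which the rule left out, leaned the same way, with 31 in the list of replicate 2 and 1 in that of replicate 1. In the conservative list were 12 members of replicate 2 only and 12 of replicate 1 only. It also held 9 of the 13 of both and 6 of the 68 of neither. Absence from a list was not always absence of a peak. Among the 126 members of replicate 2 only, 47 had some candidate peak spanning the summit in the unthresholded list of replicate 1, and among the 80 of replicate 1 only, 56 had one in that of replicate 2. The 68 members of neither list mostly had one in each, 62 in replicate 1 and 60 in replicate 2.

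The 13 members called in both replicates lay in 12 genes. The signal value, the peak caller's own, has a scale set per list, so a value is read against its list, which before thresholding held 84912 nuclear candidates with a median of 18.6 in replicate 1 and 47072 with a median of 11.6 in replicate 2. dos-3, which encodes a Notch co-ligand, had the highest signal of these members in replicate 1, at 209.7, and 99.06 in replicate 2, where C35E7.9 was higher. It ranked at the 99.8th percentile of nuclear candidates in replicate 1 and the 99.35th in replicate 2, and lay at 94.2% of the coding length. At best-18, a bestrophin family channel gene, the signal was 134.2 in replicate 1 and 72.5 in replicate 2.

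The MAP kinase-interacting kinase gene mnk-1 held a pair of summits, both called in both replicates. The first, at 9.93% of the coding length, had signals of 70.5 in replicate 1 and 71.1 in replicate 2, and the second, at 86.5%, had 52.1 and 69.0 in the same order. hsp-1, the constitutive HSC70 chaperone, had 62.7 in replicate 1 and 92.5 in replicate 2 at its second summit, which lay 160 bp from the snoRNA gene F26D10.24. Its first summit, 219 bp from the same snoRNA gene, was called in replicate 1 only, with signals of 45.7 in replicate 1 and 14.6 in replicate 2. A small RNA gene was thus close to both hsp-1 summits, and its part in them was not tested.

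The glutamate transporter gene glt-6 had signals of 68.4 in replicate 1 and 51.1 in replicate 2, and pck-2, a phosphoenolpyruvate carboxykinase gene, had 101.8 and 44.4. The pck-2 summit lay in the promoter window of another annotated transcript start. Of the 50-base words around it, 26.3% occur more than 1 time in the genome. C35E7.9 had 113.5 in replicate 1 and 120.9 in replicate 2, with a tRNA gene 49 bp from its summit. lmd-2 had 107.9 in replicate 1 and 57.5 in replicate 2, and hphd-1 had 53.4 and 35.8. The remaining members of both lists were csn-5, a COP9 signalosome subunit, T19A5.3 and stdh-1. All 13 had a signal above the median candidate of each list, and their signals spanned 26.9 to 209.7 in replicate 1 and 16.6 to 120.9 in replicate 2.

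Members of replicate 2 only included the highest signals among coding exon summits in that replicate's list. grl-25, a gene of the hedgehog-related ground-like family, reached 519.3 in replicate 2 at its first summit and had no candidate peak there in replicate 1. sqt-3, a cuticle collagen gene whose symbol keeps it outside the col- exclusion, had 195.6 in replicate 2 at its stronger summit and no candidate in replicate 1. F55A12.18 had 211.0 in replicate 2 and none in replicate 1. These 3 summits, at 69.2%, 69.2% and 68.7% GC, were thus among the most GC-rich of the collection. ram-2 had 206.4 in replicate 2 and 8.75 in replicate 1, where it exceeded only 16.3% of candidates. The col- exclusion went by symbol alone, so collagen genes with other symbols were kept. Read in codons from its base 3, the printed ram-2 window has the glycine codon GGA at every 3rd codon over most of its length. That is the repeat of collagens, and the rest of the ram-2 gene was not checked for it. ZK84.1 had a signal of 201.2 in replicate 2 under 2 neighbouring summits that the same peak spans, and 51.95 in replicate 1 at the second of them. The F55A12.18 summit and this second ZK84.1 summit were also in the conservative list. The first ZK84.1 summit and those of grl-25, sqt-3 and ram-2 were not.

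Of the 5 strongest members of replicate 1 only, 4 had a candidate peak in replicate 2, which by the choice of these members was not called there. R12E2.13 had 121.6 in replicate 1 and 25.3 in replicate 2, D2030.12 had 104.7 and 19.1, and suro-1 had 101.9 and 28.8. The suro-1 summit was also in the conservative list, and the other 4 of these 5 were not. F25B5.5 had 91.6 in replicate 1 and 15.6 in replicate 2, while Y48G1C.13, at 91.6 in replicate 1, had no candidate in replicate 2. lin-12, which encodes a Notch receptor, had 89.3 in replicate 1 and none in replicate 2, with its summit at 99.97% of the coding length. Between 33.8% and 44.3% GC, the first 5 of these summits were close to average coding sequence.

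Over all members, 202 had a candidate peak in the list of replicate 1, with a median signal of 51.3, and 254 in that of replicate 2, with a median of 36.9. The signals of the 171 members with a candidate in both lists had a Spearman rho of -0.20, against 0.37 over 743 intronic, 0.28 over 570 intergenic and 0.41 over 1138 promoter summits. These are descriptions across summits that share 2 libraries, and every class entered through the same union, which takes a summit that either list calls. In the list from both replicates the 163 members called there had a median signal of 79.2, against 101.7 over 723 intronic, 100.5 over 577 intergenic and 108.3 over 1143 promoter summits. Of the 163, 86 (52.8%) lay in the weakest 25% of that list and 9 (5.52%) in the strongest. Introns had 27.5% there, and the odds ratio of coding exons against introns was 2.94 (Fisher's exact adjusted p = 1.65e-09 over 3 classes, limits 2.04 and 4.23). Against intergenic summits it was 3.15 (exact adjusted p = 5.995e-10) and against promoters 4.40 (8.28e-17), a comparison chosen after the signals had been seen.

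**Figure D2:**
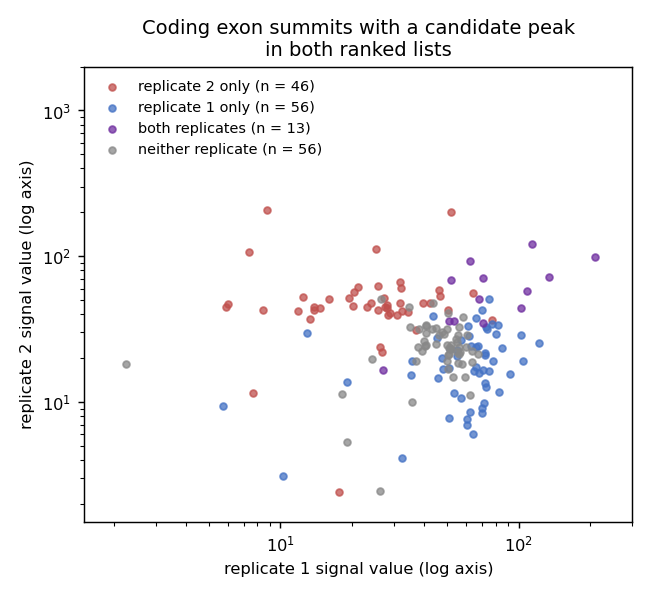
Signal value in replicate 1 (x axis, log scale) against replicate 2 (y axis, log scale) for the 171 coding exon summits with a candidate peak in both ranked lists, coloured by the list that called them. Points of replicate 2 only lie high and to the left, points of replicate 1 only low and to the right, and the 13 of both replicates reach 209.7 and 120.9.

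GC content set the members of the replicates apart. Within 100 bp of the summit it averaged 54.4% ± 8.19 (SD over 126 summits) in members of replicate 2 only and 41.8% ± 6.04 (SD over 80 summits) in members of replicate 1 only. All eligible coding bases, meaning the 19979201 bases that the rule could have chosen, averaged 40.1% ± 5.90. At least 50% GC was reached by 90 of 126 members of replicate 2 only (71.4%) and 10 of 80 of replicate 1 only (12.5%), against 5.82% of eligible coding bases. For the members the odds ratio was 17.2 (Fisher's exact p = 2.44e-17, limits 7.77 and 41.75), comparing 1 list with the other. Over summits of every class, 52.95% of those of replicate 2 only and 6.66% of those of replicate 1 only reached 50% GC. A wide difference between the lists was thus present across the whole collection. The members of both lists averaged 44.9% ± 7.19 (SD over 13 summits) and those of neither list 44.3% ± 8.12 (SD over 68 summits).

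Flanking sequence did not share the high GC. Points 500 bp to either side averaged 40.5% around members of replicate 2 only and 40.2% around members of replicate 1 only. These points were not required to lie in coding sequence, and the median length of the members' exons was 493.5 bp and 218.5 bp in the same order. The summit was richer in GC than both of its flanks in 99 of 126 members of replicate 2 only (78.6%) and in 30 of 80 of replicate 1 only (37.5%). Over summits of every class the shares were 78.7% and 45.01%, so the first was near that of the whole collection. Intronic summits of replicate 2 only averaged 50.9%, and those of replicate 1 only 41.4%, so the difference between the lists was not limited to coding exons. Across coding exon summits, GC content and signal had a Spearman rho of 0.61 in replicate 2 (254 summits) and -0.38 in replicate 1 (202 summits), values given as a description. The libraries' GC bias could not be measured without reads, and its part in these differences was not tested.

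**Figure D3:**
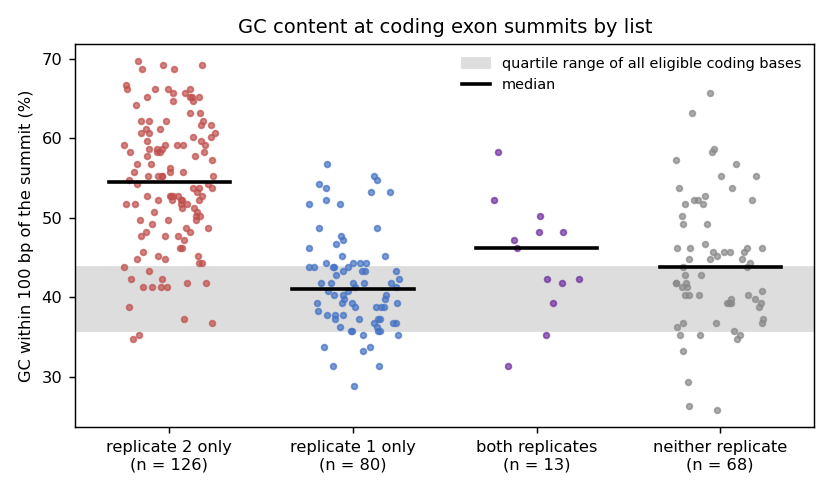
GC content (%) within 100 bp of each coding exon summit, by the list that called it, with the median as a line and the quartile range of all eligible coding bases (35.8% to 43.8%) as a band. The median was 54.5% for replicate 2 only, 41.0% for replicate 1 only, 46.3% for both and 43.8% for neither.

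Repetitive coding sequence belonged mostly to the same members. Sequence complexity was taken as the share of 6-base words in the 201-bp window that were distinct, and its median was 86.5% in members of replicate 2 only and 95.7% in members of replicate 1 only, against 95.4% over eligible coding sequence. Under 80% distinct words were found at 48 of 126 summits of replicate 2 only (38.1%) and at 0 of 80 of replicate 1 only, which gives an odds ratio with a lower limit of 12.2 (Fisher's exact adjusted p = 7.72e-12). Every 100th eligible coding base fell under 80% in 1.03% of cases. Over summits of every class the medians were 90.3% for replicate 2 only and 94.4% for replicate 1 only. Intronic summits gave 90.8% and 94.9%, so the lower median of replicate 2 only was not limited to coding exons. The grl-25 summit printed above stood at 31.6%, ZK84.1 at 42.4% and ram-2 at 51.5%. cut-2, a cuticlin gene, stood at 53.6%, with signals of 111.4 in replicate 2 and 25.1 in replicate 1.

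Exact copies of 50-base words were counted over the whole genome, the window itself included. A 50-base word that occurs more than 1 time, nearby or elsewhere, was found around 26 of the 287 members (9.06%). More than 50% of the words were such copies at only 2 summits, 1 in ubq-1 (70.4%) and 1 in rpl-7A (53.3%). Copies in the same gene were not told apart from copies elsewhere. Reads from such sequence cannot be placed with certainty, so these values are uncertain.

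Short words at the summits were counted on both strands within 50 bp of the summit and set against equal windows around points 500 bp to each side. These flanking windows were not required to be coding, so base composition can differ between them and the summits. The published PHA-4 consensus, a set of 16 words, was present at 45 of 287 summits (15.7%), against 20.4% of flanking windows and 23.1% of eligible coding windows. The difference of -4.70 percentage points did not pass the exact McNemar test (p = 0.428, adjusted p = 0.749 over 7 motifs). The consensus was found at 4 of 126 summits of replicate 2 only (3.17%) and 26 of 80 of replicate 1 only (32.5%), the odds ratio being 0.0690 (limits 0.0167 and 0.212, Fisher's exact adjusted p = 2.31e-08), and at 5 of the 13 of both lists. Within the members of 1 list the comparison with flanks went both ways, at -14.4 points for the 139 members in the list of replicate 2 (exact McNemar p = 0.00372) and 11.3 points for the 93 in that of replicate 1 (exact McNemar p = 0.174). The consensus words are rich in A and T, and read backwards they were present at 11.1% of summits, 17.9% of flanks and 21.8% of eligible windows, at 6.35% of summits of replicate 2 only and at 17.5% of those of replicate 1 only.

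The single forkhead words were rare at summits and in the background alike. TGTTTAC was present at 1 of 287 summits (0.348%), against 0.348% of flanks and 0.674% of eligible windows, and TGTTTGC at 3 (1.05%), against 1.39% and 1.39%. TATTTAC was present at 1 (0.348%), against 0.348% of flanks and 0.956% of eligible windows, and TATTTGC at 2 (0.697%), against 0.871% and 1.49%. The GATA word GATAAG was present at 13 summits (4.53%), against 4.53% of flanks, and GAGAGA at 12 (4.18%), against 7.49%. None of these passed the exact McNemar test (adjusted p of 0.656 to 1). A word chosen after the sequences had been seen, GGAGGA, was present at 53 summits (18.5%), against 10.1% of flanks and 6.22% of eligible windows, and at 42 of the 126 summits of replicate 2 only (33.3%) and 3 of the 80 of replicate 1 only. These are matches of letters and not evidence of a site.

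Members lay late in genes more often than coding bases do. The final 25% of the coding sequence held 120 of the 287 summits (41.8%), against 25.03% of eligible coding bases, and the first 25% held 35 (12.2%), against 19.2%. The last coding exon held 98 (34.1%), against 13.7% of eligible bases, and 100 (34.8%) lay within 500 bp of the end of their own gene, against 16.37%. No test was made of members against coding bases. The share was larger in members of replicate 1: the final 25% held 43 of 126 summits of replicate 2 only (34.1%) and 43 of 80 of replicate 1 only (53.8%), the odds ratio being 0.448 (Fisher's exact adjusted p = 0.00609, limits 0.241 and 0.823). Of the 13 members of both lists, 8 lay in that final stretch, among them dos-3, best-18 and glt-6.

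**Figure D4:**
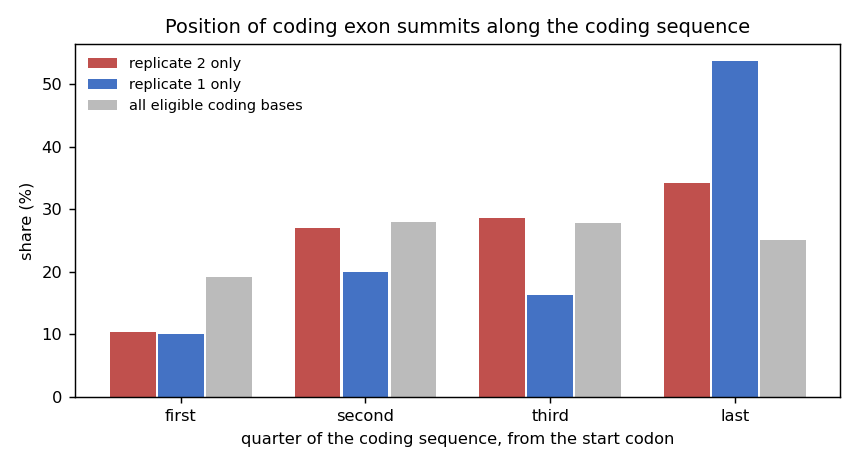
Share (%) of coding exon summits of replicate 2 only (n = 126) and replicate 1 only (n = 80), and of all eligible coding bases, in each successive 25% of the coding sequence from the start codon. In the final 25% the shares were 34.1%, 53.8% and 25.03%.

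Exon length and the distance to exon edges also differed between the replicates' members. Exons of more than 500 bp held 62 of 126 members of replicate 2 only (49.2%) and 15 of 80 of replicate 1 only (18.8%) (odds ratio 4.17, limits 2.09 and 8.74, Fisher's exact adjusted p = 1.29e-05). Of eligible bases, 16.6% lay in exons of over 500 to 1000 bp and 8.23% in longer ones. Exon edges showed the opposite order, with 25 of 126 summits of replicate 2 only (19.8%) and 47 of 80 of replicate 1 only (58.8%) within 50 bp of one, against 43.5% of eligible bases (odds ratio 0.176, 0.0886 to 0.339, exact adjusted p = 3.39e-08). The end of the gene lay within 500 bp for 31 of 126 (24.6%) and 39 of 80 (48.8%) of these members (odds ratio 0.345, 0.181 to 0.651, exact adjusted p = 5.93e-04). The 6 features compared in this way (complexity, consensus, final 25%, exon length, exon edge and gene end) were chosen after their values had been seen.

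By chromosome, III held 22.3% of members against 14.5% of eligible coding bases, and X held 8.01% against 15.5%. The other chromosomes differed by less than 3 percentage points. Start sites of other annotated transcripts were not common at the members, with 20 of 287 (6.97%) in the promoter window of such a start, against 5.52% of eligible bases. Small noncoding RNA genes were closer than the coding background. Within 250 bp of the summit one was found at 12 members (4.18%), against 0.449% of eligible bases. They were tRNA genes at abt-2, C35E7.9, F49C5.9, K11H12.8, nhr-150 and sulp-3, snRNA genes at glr-2, dhc-4 and W09D6.5, and snoRNA genes at Y55F3BR.2 and both summits of hsp-1.

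The 287 summits lay in 251 genes, 1.37% of the 18263 genes with eligible coding sequence. Of these, 29 genes held 2 summits and 3 held more. Some summits of a gene lay in the same peak, as the 2 of dos-3 did, and still counted separately in the tests. With summits within 250 bp counted once there were 253 members, and no Fisher's exact test was repeated at that setting. ubq-1, which encodes polyubiquitin in tandem copies, held 4 summits, with signals in replicate 2 of 39.5 and 24.0 at 2 of them and no candidate in replicate 2 at the others. ZK84.1 held 3, within its last coding exon of 2081 bp. icl-1, the bifunctional enzyme of the glyoxylate cycle, held 3, of which 2 were of replicate 1 only and 1 of neither, with signals of 50.7, 55.03 and 35.6 in replicate 1 and 17.1, 20.6 and 9.98 in replicate 2.

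**Figure D5:**
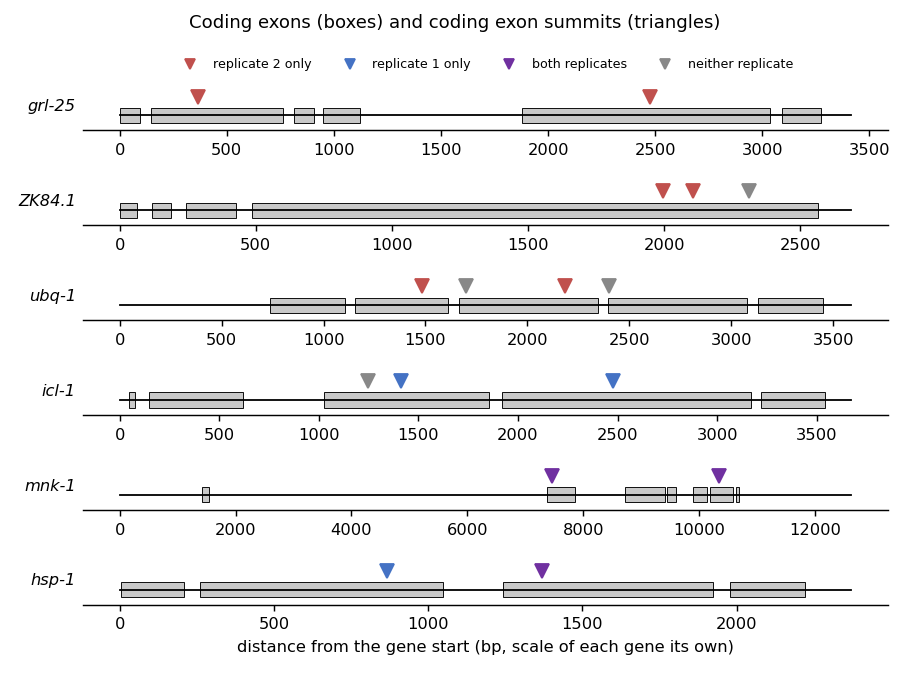
Coding exons (boxes) and coding exon summits (triangles, coloured by the list that called them) along 6 genes, by distance from the gene start in bp, each gene on its own scale. The 3 ZK84.1 summits share the last exon, the mnk-1 pair was called in both replicates, and ubq-1 held 4 summits.

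Genes were also sorted into 21 lists by function or family, and counts are read against the 1.37% of all eligible genes. Such shares take no account of coding length. All genes held 14.36 summits per Mb of eligible coding bases. The rate was 5.25 in C-type lectins, 14.99 in nuclear hormone receptors and 20.4 in matrix genes. Transcription and chromatin genes had 21.7, and cytoskeleton and motor genes 24.8. Germ line genes had 55.4, translation factors 65.9, intestinal and yolk genes 120.2 and chaperones 129.8. Ribosomal protein genes had 510.8, from 6 summits in 11.75 kb of eligible bases, and histones 733.7, from 1 summit in 1.36 kb. Rates over so little sequence are coarse, and no rate was tested. Intestinal and yolk genes held a member in 5 of 28 cases. They were the yolk protein genes vit-2 and vit-6, the microvillar actin gene act-5, asp-1 and end-1, a GATA factor of the endoderm. At vit-2 the signal was 46.4 in replicate 1 and 58.2 in replicate 2, and at end-1 it was 77.7 in replicate 1 and 19.2 in replicate 2. The vit-6 summits were called in neither replicate list, although their signals of 58.1 and 54.7 in replicate 1 and 38.2 and 27.1 in replicate 2 lay above the medians of all unthresholded candidates.

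Ribosomal protein genes had a member in 4 of 43 cases, namely rpl-3, rpl-4, rpl-7A and rpl-11.1, with 6 summits, all of replicate 2 only. The stronger rpl-3 summit had 54.6 in replicate 2 and no candidate in replicate 1. In replicate 2 the other rpl-3 summit had 22.1, the first rpl-7A summit 50.7 and the rpl-11.1 summit 31.2. Low signals there were those of rpl-4, at 4.54 (12.1th percentile of candidates), and the second rpl-7A summit, at 4.09 (9.91th percentile). The rpl-4 peak overlapped that of lmd-2. Chaperone genes had one in 3 of 28 cases: hsp-1, whose second summit was called in both replicate lists and whose first was of replicate 1 only, hsp-90 and hsp-110. The hsp-90 summits were of replicate 1 only, with signals of 43.6 and 59.8 there, and hsp-110 was of replicate 2 only, with 45.7. Translation factor genes had one in 2 of 28 cases, pab-1, the poly(A)-binding protein gene, called in replicate 2 only, and eef-1A.1, an elongation factor gene, called in neither replicate list.

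In the germ line list 3 of 40 genes held members, none of them called in the list of replicate 2: the Piwi gene prg-1, the P granule gene pgl-1 and car-1. pgl-1 had 62.5 in replicate 1 and 8.56 in replicate 2. Transcription and chromatin genes had members in 3 of 43 cases, the SWI/SNF genes swsn-1 and let-526 and the dosage compensation gene dpy-21, which had 58.9 in replicate 2 and no candidate in replicate 1. Cytoskeleton and motor genes had them in 3 of 36 cases, the formin gene cyk-1, the kinesin gene klp-7 and the spectraplakin gene vab-10. At cyk-1 the signal was 123.2 in replicate 2, with no candidate in replicate 1. Matrix genes other than col- had them in 2 of 34 cases, sqt-3 and vab-10, and histone genes in 1 of 6, the linker histone gene his-24.

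Several lists held none, that of the pharynx among them. The pharynx list had members in 0 of 25 genes, and the list of foregut and gut regulators and other transcription factors in 0 of 46. Body wall muscle had 0 of 35, neurons 0 of 35, autophagy, lysosome and V-ATPase genes 0 of 41, metabolism 0 of 39, aminoacyl-tRNA synthetases 0 of 32 and major sperm proteins 0 of 19. A count of 0 in lists of this size still allows shares of up to 6.52% (of 46 genes) to 15.8% (of 19 genes), which is above the share over all genes. The large families gave tighter limits: chemoreceptors had 0 of 1124 genes, which allows up to 0.267%, and F-box genes 0 of 319, which allows up to 0.940%. Nuclear hormone receptors had 3 of 267 and C-type lectins 1 of 235. By symbol, a grouping made after the values were seen, the pqn genes of proteins with prion-like glutamine- and asparagine-rich domains had members in 4 of 56 cases, with 6 summits, all of replicate 2 only and at 46.3% to 65.2% GC.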

How the data were processed

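PHA-4::GFP ChIP-seq of whole L4 larvae, 2 biological replicates of 1 group, was analysed from the peak lists the authors deposited on the ce11 assembly. Per the labels and the notes with the files, lists were made from filtered alignments and a control. Aligner, peak caller and read depth: not given in the sources used here. Therefore intervals cover counting error over summits or genes only. The deposited signal is the peak caller's own value, scaled per list, so it serves only for ranks and descriptions inside its own list. For each member the −log10 IDR in the deposited ranked lists was also kept.

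Gene models were those of Ensembl release 115, and bases were read from RefSeq's genome of the same assembly, WBcel235. Summits of the 3 thresholded lists were merged within 100 bp, the list from both replicates first, then replicate 1, then replicate 2, and placed in 1 class each, promoters first, then coding exons, untranslated exons, introns, noncoding genes and intergenic sequence. A replicate's signal at a member is that of its strongest candidate peak spanning the summit. Fisher's exact and exact McNemar tests were two-sided, the larger McNemar p of both flanks being given, with Benjamini-Hochberg adjustment and a threshold of 0.05. Peaks are not replicates, so p-values compare lists or classes of peaks. The merging and list membership steps were tested on simulated data. Python 3.11.15, numpy 2.4.6, pandas 2.3.3, scipy 1.17.1 and statsmodels 0.14.6 were used.

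Named genes are those with the 10 strongest members in the list from both replicates, the 10 best of both replicate lists, the 5 strongest of each single replicate list, 3 or more members, or up to 4 per gene list. Genes named outside it (pals-26, lin-12, cut-2, csn-5, T19A5.3, stdh-1, asp-1, the pqn genes, those at the edge of the rule and those near small RNA genes) were chosen after their values were seen. Members and lists were chosen with earlier results of these data known. Alternatives covered merging distance, promoter window, transcript starts, overlap, window size, stricter lists and single replicates.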

Additional observations from a re-analysis of the deposited data

How the results depend on the processing

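The number of coding exon summits, 287, stayed between 253 and 307 under other merging distances, promoter windows and transcript choices. It was 44 of 1555 peaks in the conservative list alone and 163 of 2920 in the list from both replicates alone. The lists of single replicates gave 85 of 2114 in replicate 1 and 141 of 1643 in replicate 2. The coding share thus depended on the list, and the 7.64% given at the start is that of the union. The share in the list of replicate 2 ranged from 45.9% to 49.8% and that in both lists from 4.49% to 5.86%. Mean GC was 49.9% within 50 bp, and 42.2% to 53.5% in the members of a single replicate list. The forkhead difference from flanks ranged from -14.4 points (replicate 2 members, exact McNemar p = 0.00372) to 11.3 points (replicate 1 members, p = 0.174). Against introns, the odds ratio for the list of replicate 2 was 1.43 (exact adjusted p = 0.0162) with summits within 500 bp of small noncoding RNA genes left out and 0.784 (exact adjusted p = 0.228) among summits under 50% GC, and the cause was not tested. The odds ratio for the list of replicate 1 was 0.567 without those neighbourhoods (exact adjusted p = 2.53e-04). For both lists it was then 0.235 (exact adjusted p = 1.52e-06) and for the conservative list 0.304 (7.34e-10), 2 values that were not planned. The splits by GC, the removal of members with copied 50-base words and the alternatives for the 6 features and the GC comparison were chosen after seeing the data, and 60 of 68 alternative values in all kept their direction and side of the threshold or moved by less than the spread. No paired analysis was possible because both replicates belong to 1 group. Depth was unknown, so a summit missing from a list is not shown to be unbound.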
